A study of Mus musculus with 7 samples.

Results

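The 40 genes described here encode lysosomal hydrolases, their cofactors, lysosomal membrane proteins and the transcription factors that control them. They were chosen by symbol from a list of cathepsins, glycosidases, sulfatases, lipid hydrolases, membrane proteins and MiT/TFE factors, and all 40 were present among the 55417 gene symbols of the count table. All 40 also passed the filter on low counts, which kept 13329 genes for testing. RNA was sequenced from RAW264.7, a mouse macrophage-like cell line, in 7 libraries that each carried a short hairpin. The 3 groups were hairpin shDpep2.968 (n = 2) and hairpin shDpep2.759 (n = 2), both directed at the dipeptidase gene Dpep2, and the control hairpin shNT (n = 3). Every group thus carried a hairpin, and hairpin-free cells were not analysed here. The labels name no treatment beyond the hairpin, no time point and no clone, and nothing in them states that the replicates came from separate cultures. The p-values therefore reflect the spread between these libraries alone, which may be technical.

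Lysosomes are acidic organelles in which hydrolases break down proteins, glycans, sulfated sugars and lipids taken up by endocytosis, phagocytosis or autophagy. Macrophages hold many of them, because they digest the particles and dead cells they engulf. A proton pump keeps the lumen acidic, sorting receptors deliver newly made enzymes, and the factors TFEB, TFE3 and MITF switch on many of these genes together by binding E-box sequences near their start sites.

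Dpep2 was measured first, as a check of the labels. Its level was 22.4 and 17.9 CPM (a gene's counts relative to the library's total, scaled for composition) with shDpep2.968, 24.9 and 19.5 CPM with shDpep2.759, and 55.6, 60.3 and 52.1 CPM with shNT, so that all 4 hairpin libraries lay below the controls. Total counts ran from 16548648 to 18401060 per library. Macrophage markers were abundant, with 8 markers summing to between 12078 and 17974 CPM per library, although Mertk was at or near 0. The defining epithelial marker Epcam and the lymphocyte marker Cd3e had 0 counts in all 7 libraries. Another lymphocyte marker, Cd79a, had 25 to 58 counts per library and was tested, and the epithelial marker Krt8 had at most 3 counts. In bulk RNA a smaller share of cells of one kind and less RNA per cell cannot be told apart.

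The lysosomal genes were a sizeable part of the RNA. Together the 40 members took 1.97% and 2.03% of all counts with shDpep2.968, 2.40% and 2.12% of them with shDpep2.759, and 1.81%, 1.92% and 1.89% with shNT. All 4 Dpep2 hairpin libraries lay above the 3 control libraries, and the first shDpep2.759 library lay highest. Gpnmb was the member with the largest fold change. Without it the summed level was 18442 and 19549 CPM with shDpep2.968, 24078 and 20377 CPM with shDpep2.759, and 17786, 18920 and 18419 CPM with shNT. The first shDpep2.968 library then lay within the control range. In CPM other members moved as well. Mean Ctsb was 3296 with shNT, 3870 with shDpep2.968 and 4448 with shDpep2.759, where mean Gpnmb was 301, 898 and 707.

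Per kilobase of the longest coding transcript, the control level was highest for Ctsd, the aspartic protease cathepsin D, at 1262 CPM per kb. Next came the cysteine proteases Ctsb (695 CPM per kb) and Ctsz (658), then the progranulin gene Grn (548) and the saposin precursor gene Psap (427). At the other end stood Ctsh, an aminopeptidase, at 2.63 CPM per kb, the iduronidase Idua at 5.10, the transcription factor Mitf at 5.67 and the 4 sulfatases at 5.81 to 11.6. The lowest member still had 65 counts in its poorest library (Ctsh), and the richest, Ctsb, reached 85949. Libraries of a group lay close together: the median ratio of the highest to the lowest library over the members was 1.12 with shDpep2.968, 1.12 with shDpep2.759 and 1.17 with shNT, beside 1.16, 1.18 and 1.22 over all tested genes. A ratio over 3 shNT libraries can run wider than one over the 2 libraries of a hairpin, so the 2 are not comparable. By this ratio the widest spread among the members was that of Cd68 in shNT, where the libraries stood at 469, 542 and 289 CPM.

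Averaged over both hairpins against shNT, 7 of the 40 members changed (17.5%), where 7.59% of all tested genes did (edgeR quasi-likelihood test, Benjamini-Hochberg adjusted p under 0.05 over all tested genes). Gpnmb, Lipa, Ctsc, Gla and Psap rose (3.44% of all tested genes rose), and Naglu and Tfeb fell (4.15% of all tested genes fell). The median log2 fold change of the 40 members was 0.05, beside 0.00 over all tested genes, and 24 of 40 lay above 0, where 50.3% of all tested genes did. At an unadjusted p under 0.05, 17 members differed, where 22.9% of all tested genes did. In 15 members (37.5%) all 4 hairpin libraries lay on one side of all 3 control libraries, 10 higher and 5 lower. Of all tested genes 18.5% were separated in this way, 9.03% higher and 9.51% lower. The 40 members were listed with earlier results of these data known, so setting these shares side by side does not test the list. The count of 7 rested on particular libraries: it was 3 when shDpep2.968 replicate 2 was left out and 1 when either shNT replicate 2 or shNT replicate 3 was, and Gpnmb was the member that kept its call in each of the 15 alternative analyses. With all hairpin libraries fitted as 1 group it was 3, with the replicate number as a block 2 (1 higher, 1 lower), and with a correction for GC content and length 15 (11 higher, 4 lower). The count over all tested genes moved too, from 1012 to 492, 356 and 321 without shDpep2.968 replicate 2, shNT replicate 2 and shNT replicate 3 in turn. It was 540 with the hairpins as 1 group, 404 with the block and 2285 with the correction.

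**Figure D1:**
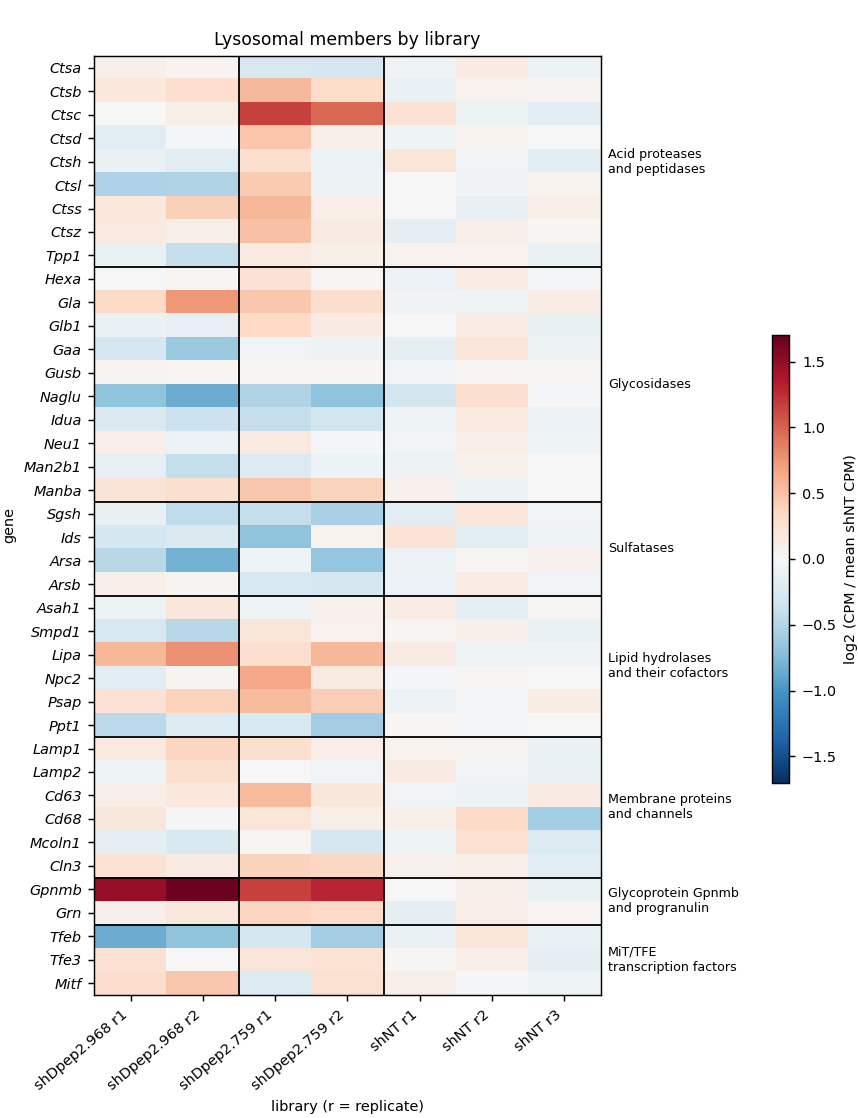
Colour shows the log2 ratio of each library's CPM to the mean CPM of the 3 shNT libraries. There is 1 row for each of the 40 members, grouped by class, and 1 column for each of the 7 libraries. Gpnmb is deep in colour in all 4 hairpin libraries, Ctsc in the 2 shDpep2.759 libraries alone, and most other rows are pale.

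The members were divided into 7 classes by role: proteases, glycosidases, sulfatases, lipid hydrolases, membrane proteins, the pair of secreted or shed glycoproteins, and the transcription factors. Each hairpin was also compared with shNT alone; these comparisons share the 3 shNT libraries with each other and with the averaged one, and their values are given side by side. With shDpep2.968 alone 5 of 40 members changed, where 5.25% of all tested genes did: Gla, Lipa and Gpnmb rose (2.29% of all tested genes did), and Naglu and Tfeb fell (2.96% did). Leaving out shDpep2.968 replicate 1 gave 3, and leaving out its replicate 2, shNT replicate 2 or shNT replicate 3 gave 1. In the same order the count over all tested genes went from 700 to 401, 69, 218 and 191. With shDpep2.759 alone 2 of 40 rose, Ctsc and Gpnmb, and 0 fell, where 4.73% of all tested genes changed, 2.72% higher and 2.00% lower. Without shDpep2.759 replicate 2 the shDpep2.759 count was 8, by DESeq2 it was 8 (6 higher, 2 lower), and with a correction for GC content and length it was 13 (10 higher, 3 lower). In these settings the count over all tested genes went from 630 to 768, 765 and 1804. At an unadjusted p under 0.05, 20 members differed with shDpep2.759 (19.3% of all tested genes did) and 13 with shDpep2.968 (23.1%).

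Among the 9 acid proteases and peptidases 1 rose in the averaged comparison and 0 fell, and the other 8 lay between -0.15 and 0.33 on the log2 scale. Of these, Ctsb passed by DESeq2, with the GC and length correction and without shDpep2.759 replicate 2. Ctsz passed with that correction, and Ctss without that library. Taking shDpep2.759 by itself, 8 of the 9 lay above 0, with a median log2 fold change of 0.29, and 5 had an unadjusted p under 0.05. With shDpep2.968 alone 5 of 9 lay above 0, with a median of 0.05. Over all 40 members 26 lay above 0 with shDpep2.759, with a median of 0.14, and 23 with shDpep2.968, with a median of 0.04. Among the 129 tested lysosomal genes outside the list, described below, 91 and 67 lay above 0. Ctsc, which encodes cathepsin C, the dipeptidyl peptidase that activates granule serine proteases, was the protease that rose in the averaged comparison. Its level was 308 and 330 CPM with shDpep2.968, 691 and 605 CPM with shDpep2.759, and 365, 289 and 269 CPM with shNT. Both shDpep2.759 libraries lay far above all others, whereas both shDpep2.968 libraries lay inside the control range. The averaged log2 fold change of 0.56 (SE 0.13, edgeR quasi-likelihood adjusted p = 0.0168) therefore joined a difference of 0.05 with shDpep2.968 (95% interval -0.27 to 0.37, adjusted p = 0.868) and a 2.10-fold rise with shDpep2.759 (log2 1.07, adjusted p = 0.00119). The averaged call was lost when any of shDpep2.968 replicate 2 and shNT replicates 2 and 3 was left out, with all hairpin libraries as 1 group and with the replicate number as a block; the shDpep2.759 call held in all 14 alternatives. Ctsc was the only member that passed the direct test of one hairpin against the other, where it was lower with shDpep2.968 by 1.02 on the log2 scale (log2 difference -1.02, 95% interval -1.38 to -0.67, adjusted p = 0.0161). In that comparison 0.840% of all tested genes passed, 0.585% in the same direction as Ctsc, and the call was lost without either shDpep2.968 library. Without shDpep2.759 replicate 2, 5 members passed, and by DESeq2 2 did, where the count over all tested genes went from 112 to 1070 and to 354.

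Cell type markers were measured beside Ctsc. Of the 7 tested macrophage markers 2 rose with shDpep2.759, Adgre1 and Fcgr1, where 2.72% of all tested genes did. By the sign of the log2 difference 6 of 7 were lower with shDpep2.968 than with shDpep2.759. That difference was 0.15 for the exception, Csf1r. Adgre1, which encodes the macrophage surface protein F4/80, was at 145 and 155 CPM with shDpep2.968, 252 and 265 CPM with shDpep2.759, and 141, 128 and 131 CPM with shNT. The 4 neutrophil markers, nearly all of it S100a8, summed to 34.1 to 50.2 CPM with shDpep2.968, 99.9 to 237 CPM with shDpep2.759 and 17.3 to 33.7 CPM with shNT, and the defining neutrophil genes Mpo and Elane had at most 2 counts in any library. Of 5 fibroblast markers 1 was tested, Dcn, the decorin gene, which was scarce at 0.864 to 0.983 CPM with shDpep2.968, 2.05 to 2.36 CPM with shDpep2.759 and 0.423 to 0.657 CPM with shNT. It rose with shDpep2.759 (log2 1.99, edgeR adjusted p = 0.00778), and the defining fibroblast gene Col1a2 had 0 counts throughout. Col1a1 had at most 10 counts in any library, and Col3a1 and Pdgfra had at most 2. The part of these markers in the Ctsc difference was not tested.

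The log2 difference of shDpep2.968 from shDpep2.759 was below 0 in 8 of the 9 proteases, Ctsc included, with a class median of -0.25, beside -0.01 over all tested genes, of which 48.4% lay above 0. The exception was the carboxypeptidase Ctsa (0.35, edgeR adjusted p = 0.265). Ctsl, the cysteine protease cathepsin L, was at 1413 and 1428 CPM with shDpep2.968, 2771 and 1912 CPM with shDpep2.759, and 2030, 1946 and 2113 CPM with shNT. The shDpep2.968 libraries lay below all 5 others, and the shDpep2.759 libraries lay on either side of the control range. Its log2 difference between the hairpins was -0.72 (edgeR adjusted p = 0.0728) and that of shDpep2.968 from shNT was -0.52 (adjusted p = 0.0737). The first shDpep2.759 library was the highest of all 7 for each of the 9 proteases except Ctsa.

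**Figure D2:**
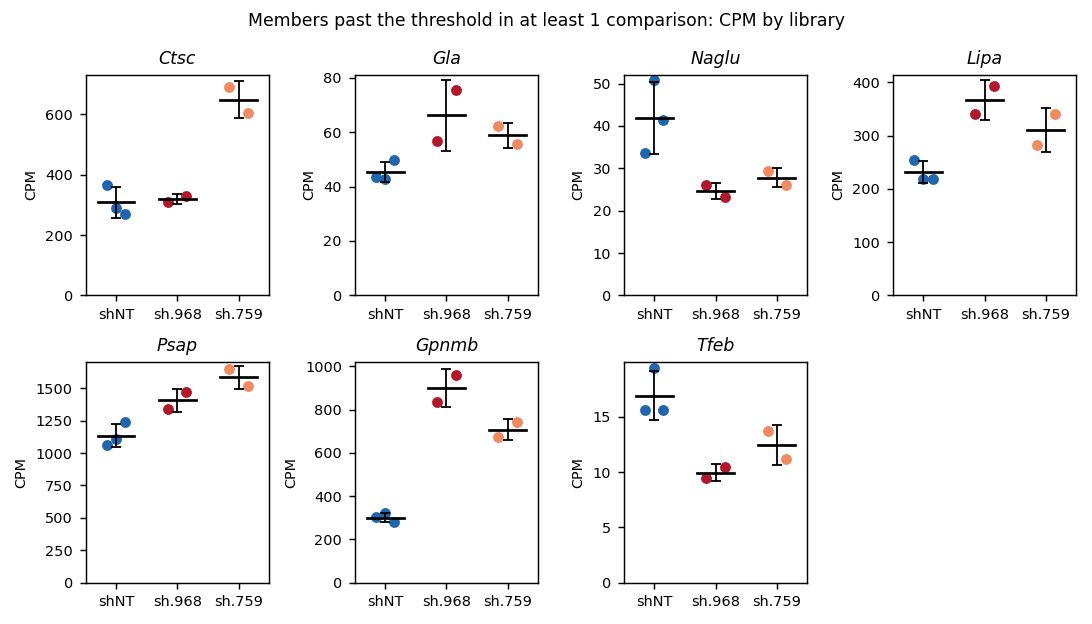
Each panel shows a member that passed the test in at least 1 comparison; each point is 1 library in CPM on a linear axis that starts at 0, and the line and bar are the mean and SD of the group. For Gpnmb the hairpin libraries lie between 672 and 960 CPM, above the control libraries at 279 to 321 CPM, whereas for Ctsc the 2 shDpep2.759 libraries alone stand apart.

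The 10 glycosidases, which remove sugars from glycolipids and glycoproteins, moved in both directions: 1 rose, 1 fell, and the other 8 lay between -0.33 and 0.33 on the log2 scale. Gla, the alpha-galactosidase that is deficient in Fabry disease, was at 56.9 and 75.4 CPM with shDpep2.968, 62.1 and 55.6 CPM with shDpep2.759, and 43.3, 42.8 and 49.6 CPM with shNT. All 4 hairpin libraries lay above the controls. It rose 1.38-fold (log2 0.46, SE 0.12, edgeR adjusted p = 0.0359), with 0.55 for shDpep2.968 (adjusted p = 0.0431) and 0.38 for shDpep2.759 (adjusted p = 0.161). The averaged call was lost in 7 of 15 alternatives: by limma-voom, with the block, with the hairpins as 1 group, without shDpep2.968 replicate 2 and without each shNT library in turn.

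Naglu encodes the glucosaminidase of heparan sulfate breakdown that is deficient in Sanfilippo syndrome type B. Its libraries were at 26.1 and 23.3 CPM with shDpep2.968, 29.4 and 26.2 CPM with shDpep2.759, and 33.7, 50.7 and 41.4 CPM with shNT. All hairpin libraries lay below all controls, and the controls were themselves spread 1.51-fold. Naglu fell by 0.68 on the log2 scale (SE 0.14, edgeR adjusted p = 0.0105), to 62.4% of the control level. The log2 fold change was -0.77 with shDpep2.968 (adjusted p = 0.0230) and -0.59 with shDpep2.759 (adjusted p = 0.0670), and the averaged call was lost without shNT replicate 2 or shNT replicate 3. Manba, the beta-mannosidase, lay just outside the threshold with a log2 fold change of 0.33 (adjusted p = 0.0509), although its groups did not overlap. Manba passed with DESeq2 size factors, by DESeq2 and with the GC and length correction. Gusb, the beta-glucuronidase, had a log2 fold change of 0.04 (95% interval -0.18 to 0.25), at 594 to 596 CPM in the hairpin libraries and 561 to 592 CPM in the controls.

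None of the 4 sulfatases passed the edgeR quasi-likelihood test in any of the 4 comparisons. In the averaged comparison 2 had an unadjusted p under 0.05, and 0 of 4 passed by limma-voom or DESeq2. Arsa did pass there with no low-count filter, with the GC and length correction and without shDpep2.759 replicate 1, and Ids, the iduronate sulfatase, with that correction and without shDpep2.759 replicate 2. For shDpep2.968 alone Arsa passed in 5 of 14 alternatives, DESeq2 among them. All 4 averaged log2 fold changes lay below 0, also under each scaling alternative, with a median of -0.32. With shDpep2.968 alone 3 of 4 lay below 0 and 1 above it, at 0.07. With shDpep2.759 alone all 4 lay below 0. Arsa, the arylsulfatase that acts on sulfatide, was at 16.5 and 13.1 CPM with shDpep2.968, 21.7 and 14.5 CPM with shDpep2.759, and 21.3, 23.1 and 24.0 CPM with shNT. The first shDpep2.759 library lay within the control range, and the log2 fold change was -0.48 (adjusted p = 0.0684). Sgsh, the sulfamidase of heparan sulfate breakdown, was at 24.5 and 19.8 CPM with shDpep2.968, 20.2 and 18.3 CPM with shDpep2.759, and 23.4, 30.7 and 26.0 CPM with shNT. Its groups overlapped, and the log2 fold change was -0.37 (adjusted p = 0.106).

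Of the 6 lipid hydrolases and cofactors 2 rose and 0 fell, with the other 4 between -0.38 and 0.18 on the log2 scale. For shDpep2.759 by itself 4 of 6 lay above 0 (5 of 6 with DESeq2 size factors), with a median log2 fold change of 0.28. Over all 40 members 26 lay above 0 with this hairpin, with a median of 0.14. Lipa, the acid lipase that releases cholesterol and fatty acids from lipoprotein lipids, was at 341 and 394 CPM with shDpep2.968, 282 and 341 CPM with shDpep2.759, and 255, 219 and 219 CPM with shNT. Every hairpin library lay above every control. Lipa rose 1.46-fold (log2 0.55, SE 0.12, edgeR adjusted p = 0.0121), with 0.67 for shDpep2.968 (adjusted p = 0.0138) and 0.43 for shDpep2.759 (adjusted p = 0.0942). The averaged call was lost with the block and when any of shDpep2.968 replicate 2 and shNT replicates 2 and 3 was left out.

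Psap encodes prosaposin, the precursor of the saposins that present sphingolipids to their hydrolases. Its libraries were at 1342 and 1471 CPM with shDpep2.968, 1645 and 1520 CPM with shDpep2.759, and 1062, 1106 and 1237 CPM with shNT. The groups did not overlap, and the rise was 1.31-fold (log2 0.39, SE 0.11, edgeR adjusted p = 0.0445). Of the 7 calls it was the one lost most often, in 8 of 15 alternatives, among them leaving out any library other than shDpep2.759 replicate 2. Ppt1, the palmitoyl-protein thioesterase, lay outside the threshold at a log2 fold change of -0.38 (adjusted p = 0.0621), with hairpin libraries at 301 to 387 CPM and controls at 447 to 459 CPM. Ppt1 passed by DESeq2, with library size alone, with no low-count filter, with the GC and length correction and without shDpep2.759 replicate 1.

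None of the 6 membrane proteins passed the edgeR quasi-likelihood test in any of the 4 comparisons. In the averaged comparison 2 had an unadjusted p under 0.05, and 0 of 6 passed by limma-voom or DESeq2. With the GC and length correction Cln3 passed in the averaged comparison (adjusted p = 0.0264) and for shDpep2.759, and Cd63 passed for shDpep2.759 without shDpep2.759 replicate 2. Their log2 fold changes ran from -0.16 to 0.28 with a median of 0.18, and 5 of 6 lay above 0 (4 of 6 with the GC and length correction). Cln3, the membrane protein mutated in juvenile Batten disease, was at 75.6 and 70.2 CPM with shDpep2.968, 83.9 and 81.2 CPM with shDpep2.759, and 67.1, 68.3 and 55.7 CPM with shNT. Its groups did not overlap, and the log2 fold change was 0.28 (adjusted p = 0.123). The tetraspanin Cd63 was at 386 and 407 CPM with shDpep2.968, 523 and 410 CPM with shDpep2.759, and 347, 335 and 397 CPM with shNT, where 1 hairpin library lay within the control range (log2 0.26, adjusted p = 0.214). The structural proteins Lamp1 and Lamp2 differed by 0.23 and 0.04 (adjusted p = 0.238 and 0.863), and the calcium channel Mcoln1 by -0.16 (adjusted p = 0.490).

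Gpnmb, a transmembrane glycoprotein of lysosomes and melanosomes that is made by macrophages and osteoclasts, showed the largest log2 fold change of any member. Its libraries were at 837 and 960 CPM with shDpep2.968, 672 and 742 CPM with shDpep2.759, and 303, 321 and 279 CPM with shNT. Every hairpin library lay far above every control, and the shDpep2.968 libraries were the highest. Gpnmb rose by 1.40 in log2 terms (SE 0.11, 95% interval 1.16 to 1.65, edgeR adjusted p = 6.2e-05). Taken singly, shDpep2.968 gave a 2.98-fold and shDpep2.759 a 2.35-fold rise. The log2 difference between the hairpins, 0.35 (95% interval 0.04 to 0.65), did not pass the test (adjusted p = 0.283). Under the 15 alternatives the averaged value ran from 1.35 to 1.45. Progranulin, encoded by Grn, a glycoprotein that is processed in lysosomes into granulins, had a log2 fold change of 0.24 (adjusted p = 0.206). Grn passed with the GC and length correction.

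Osteoclast markers were measured beside Gpnmb. The 8 markers summed to 196 to 205 CPM with shDpep2.968, 201 to 217 CPM with shDpep2.759 and 102 to 117 CPM with shNT. Of the 6 that were tested, 2 rose in the averaged comparison, where 3.44% of all tested genes did: Acp5, the tartrate-resistant acid phosphatase, and Ocstamp. Acp5, which is also on the list of other hydrolases, made up the largest part of the difference in the sum. The other 4 did not pass: the log2 fold change was 1.31 for Ctsk (adjusted p = 0.0538), 0.29 for Nfatc1 (adjusted p = 0.202), 0.11 for Dcstamp (adjusted p = 0.704) and -0.68 for the integrin gene Itgb3 (adjusted p = 0.246). Calcr, the calcitonin receptor that defines mature osteoclasts, had 0 counts in all 7 libraries, and Oscar had at most 3 counts. Ocstamp, a membrane protein of osteoclast fusion, was at 18.2 and 15.8 CPM with shDpep2.968, against 5.22 and 5.51 CPM with shDpep2.759 and 5.68, 5.64 and 4.64 CPM with shNT. Ocstamp was high with shDpep2.968 alone, whereas Gpnmb was high with both hairpins. Acp5, like Gpnmb, rose under each hairpin, by log2 fold changes of 1.71 (shDpep2.968) and 2.20 (shDpep2.759). For Ctsk, which was scarce, every hairpin library lay above every control. Its log2 fold changes, 1.45 and 1.17 in that order, did not pass (edgeR adjusted p = 0.0697 and 0.161). For Nfatc1, Dcstamp and Itgb3 the hairpin libraries overlapped the controls. The part of these markers in the Gpnmb difference was not tested.

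Among the 3 MiT/TFE transcription factors 1 fell and 0 rose. Tfeb, the factor best known for driving lysosomal gene expression, was at 9.42 and 10.5 CPM with shDpep2.968, 13.7 and 11.2 CPM with shDpep2.759, and 15.6, 19.4 and 15.7 CPM with shNT. All 4 hairpin libraries lay below the controls. Tfeb fell by 0.60 on the log2 scale (SE 0.14, edgeR adjusted p = 0.0195), to 65.9% of the control level, with -0.76 for shDpep2.968 (adjusted p = 0.0230) and -0.44 for shDpep2.759 (adjusted p = 0.166). The averaged call was lost with the block, with the hairpins as 1 group, with the GC and length correction, and when any of shDpep2.968 replicate 1 and shNT replicates 2 and 3 was left out. Tfe3 and Mitf had log2 fold changes of 0.18 (adjusted p = 0.348) and 0.21 (adjusted p = 0.380), and Tfe3 passed with the GC and length correction. These are transcript levels; the MiT/TFE proteins are regulated largely by moving between lysosome and nucleus, which was not measured here.

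**Figure D3:**
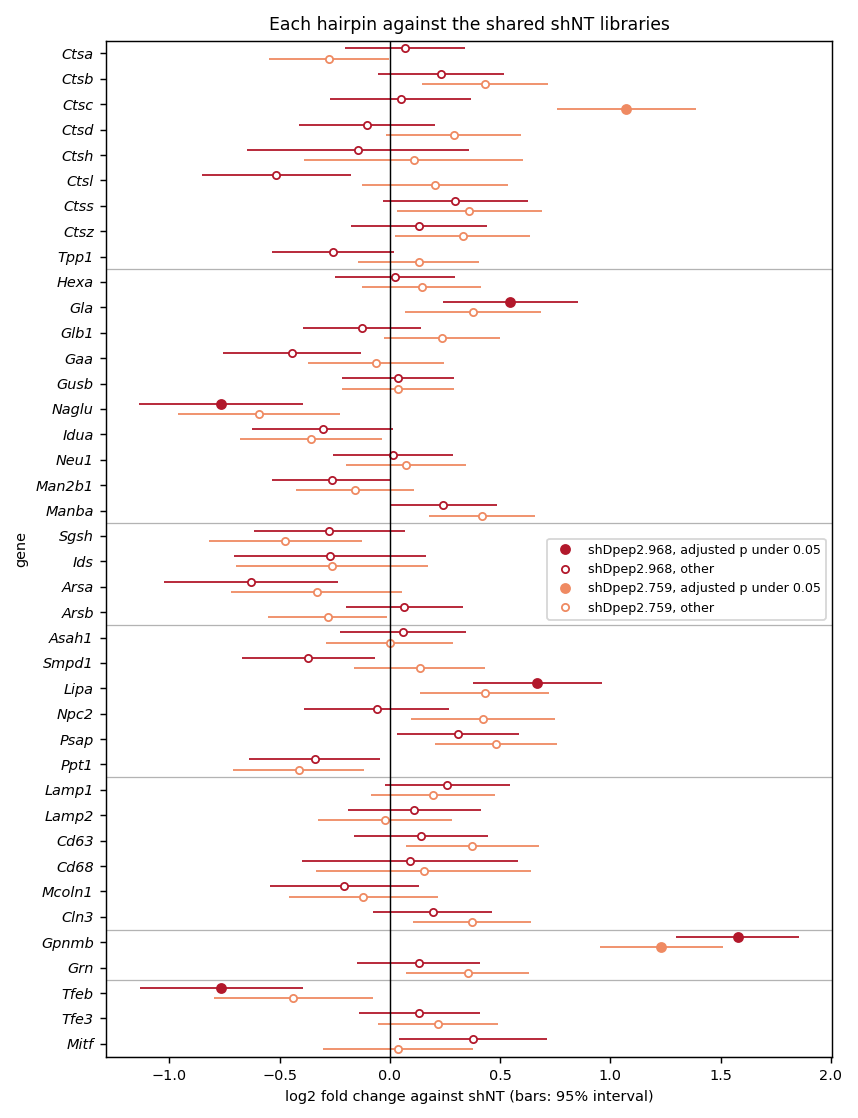
Each point is the log2 fold change of a member with 1 hairpin against the shared shNT libraries, with its 95% interval as a bar; filled points had an adjusted p under 0.05. Gpnmb lies at 1.58 and 1.23 for the 2 hairpins, and Ctsc at 0.05 for shDpep2.968 and 1.07 for shDpep2.759.

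Because the MiT/TFE factors bind the E-box CACGTG, the promoters of the members were searched for it, in windows from 250 bases before to 50 bases after the RefSeq start site (build GRCm38.p6), of which 37 of 40 members had one. CACGTG, which reads the same on both strands, was found in 12 of 37 windows (32.4%), against 8.09% of the 27025 genes with a window and 11.9% of the 9665 tested genes with one. The 7-letter form TCACGTG, searched on both strands and always containing CACGTG, was in 11 of 37 (29.7%), against 4.29% and 7.07%. The related TCATGTG, also searched on both strands, was in 6 of 37 (16.2%), against 4.31% and 2.77%. The matches below are printed with 12 bases on either side, 5′ to 3′ on the gene's strand, with the E-box in capitals. They belong to Naglu and Gla, the 2 changed members whose windows hold it, and to the sulfatases Arsa and Sgsh described above.
Naglu, chr11:101070009-101070038 on the plus strand: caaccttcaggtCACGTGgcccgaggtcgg
Gla, chrX:134601215-134601244 on the minus strand: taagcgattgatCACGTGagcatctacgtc
Gla, chrX:134601182-134601211 on the minus strand: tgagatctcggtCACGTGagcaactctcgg
Arsa, chr15:89477423-89477452 on the minus strand: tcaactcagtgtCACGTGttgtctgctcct
Sgsh, chr11:119355522-119355551 on the minus strand: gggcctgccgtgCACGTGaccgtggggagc

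The Naglu match began 73 bases before the start site, the Gla matches 227 and 194 bases before, the Arsa match 16 and the Sgsh match 29. In GENCODE M21 both Gla windows lie wholly in an untranslated exon of the neighbouring gene Hnrnph2, and the Naglu, Sgsh and Arsa windows overlap an untranslated exon of their own gene by 27, 15 and 3 bases. Naglu fell and Gla rose, so the 2 changed members with an E-box moved in opposite directions. Of the 12 members with CACGTG 1 rose and 1 fell, with a median averaged log2 fold change of -0.13. Of the 25 whose windows lacked it 4 rose and 1 fell, with a median of 0.12. Across all tested genes, GC content and the averaged log2 fold change had a Spearman correlation of -0.26. The part of GC content in the difference between these medians was not tested. Gpnmb, Ctsc, Lipa, Psap and Tfeb had none of the 3 motifs in this window. A match describes the letters and shows no binding.

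Beyond the members, 135 genes of the proton pump, other hydrolases, protease inhibitors, sorting, transport, nutrient sensing and autophagy were listed, and 129 were tested. This list too was drawn up with earlier results of these data known, so its shares do not test it. In the averaged comparison 13 of 129 changed (10.1%, beside the 7.59% of all tested genes), 8 higher and 5 lower, with a median log2 fold change of 0.08. Leaving out shDpep2.968 replicate 2 gave 8, leaving out shNT replicate 2 gave 6 and leaving out shNT replicate 3 gave 4. The count was 6 with the hairpins as 1 group, and 33 (25 higher, 8 lower) with the GC and length correction. In the same order these settings took the count over all tested genes from 1012 to 492, 356, 321, 540 and 2285. With shDpep2.968 alone 11 changed (8.53%, beside 5.25% of all tested genes; 5 higher, 6 lower), and with shDpep2.759 alone 8 changed (6.20%, beside 4.73%), all higher (7 higher and 1 lower when scaled by library size alone). The count of 11 became 6 or 1 when the first or second shDpep2.968 library was left out, 17 when shDpep2.759 replicate 2 was, 4 when shNT replicate 2 was and 3 when shNT replicate 3 was. In the same order the count over all tested genes went from 700 to 401, 69, 1309, 218 and 191. The count of 8 became 2 when either shNT replicate 2 or shNT replicate 3 was left out, where the count over all tested genes went from 630 to 299 and 253. With the GC and length correction the counts were 29 (18 higher, 11 lower) and 32 (27 higher, 5 lower). That correction took the counts over all tested genes from 700 to 1856 and from 630 to 1804.

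Of the 18 proton pump genes 2 rose and 0 fell, and 15 of 18 lay above 0, with a median log2 fold change of 0.23. Tcirg1, the large membrane subunit of the pump in osteoclasts and macrophages, was at 540 and 450 CPM with shDpep2.968, 557 and 562 CPM with shDpep2.759, and 366, 402 and 355 CPM with shNT. All hairpin libraries lay above the controls (log2 0.49, edgeR adjusted p = 0.0173; lost with the block and without shDpep2.968 replicate 1 or any one shNT library). Atp6v0d2, a subunit form abundant in osteoclasts, was scarce: its libraries were at 1.62 and 2.25 CPM with shDpep2.968, 1.85 and 2.75 CPM with shDpep2.759, and 0.786, 0.438 and 0.782 CPM with shNT (log2 1.65, adjusted p = 0.0102; lost without shNT replicate 2). Both pump subunits were therefore higher in every hairpin library, at very different levels.

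Atp6v0a1, another form of the large membrane subunit, was the related gene that passed the direct test between the hairpins. Its libraries were at 78.9 and 74.4 CPM with shDpep2.968, 126 and 133 CPM with shDpep2.759, and 101, 118 and 99.4 CPM with shNT. The shDpep2.968 libraries lay below the controls and the shDpep2.759 libraries above them. The log2 difference between the hairpins was -0.76 (95% interval -1.05 to -0.47, edgeR adjusted p = 0.0209; lost without either shDpep2.968 library or shNT replicate 3). Without shDpep2.759 replicate 2, 14 related genes passed this test, while the count over all tested genes went from 112 to 1070.

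Among 26 other hydrolases 3 rose and 2 fell. Acp5 was at 87.4 and 81.1 CPM with shDpep2.968, 123 and 115 CPM with shDpep2.759, and 33.0, 25.0 and 19.4 CPM with shNT, so that all hairpin libraries were far above the controls (log2 1.96, edgeR adjusted p = 6.2e-05; the call held in all 15 alternatives). Acp2, the lysosomal acid phosphatase, rose by 0.65 (adjusted p = 0.00626; lost with the block and without shNT replicate 3), from 38.2, 33.3 and 30.8 CPM with shNT to 45.8 and 57.8 CPM with shDpep2.968 and 54.4 and 55.4 CPM with shDpep2.759. Hgsnat, the acetyltransferase of heparan sulfate breakdown, fell by 0.47 (adjusted p = 0.0103; lost with the block, with the hairpins as 1 group and without shNT replicate 3).

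In the 21 sorting genes 1 rose and 2 fell. Sort1, the sortilin receptor that carries prosaposin and other cargo to lysosomes, was at 10.5 and 8.01 CPM with shDpep2.968, 15.3 and 13.6 CPM with shDpep2.759, and 18.3, 20.8 and 18.2 CPM with shNT. All hairpin libraries lay below the controls, lowest with shDpep2.968 (averaged log2 -0.72, edgeR adjusted p = 0.00583; lost with the hairpins as 1 group). Of the tethering complex subunits, Vps33a rose by 0.36, from 113, 108 and 108 CPM with shNT to 142 and 153 CPM with shDpep2.968 and 136 and 133 CPM with shDpep2.759 (adjusted p = 0.0327; lost without shDpep2.968 replicate 2 or any one shNT library). Vps39 fell by 0.35, from 87.1, 99.0 and 90.2 CPM to 73.7 and 70.5 CPM with shDpep2.968 and 75.5 and 70.2 CPM with shDpep2.759 (adjusted p = 0.0460; lost in 9 of 15 alternatives, among them leaving out any library other than shDpep2.759 replicate 1). Each was lost as well with the block and with the hairpins as 1 group.

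Slc11a1, the phagosomal metal transporter of macrophages, was the 1 of 24 transport genes that changed. Its libraries were at 373 and 328 CPM with shDpep2.968, 449 and 450 CPM with shDpep2.759, and 273, 280 and 268 CPM with shNT, every hairpin library above every control (log2 0.54, edgeR adjusted p = 0.00669; lost with the block and without shNT replicate 3). Of 19 nutrient-sensing genes Fnip2, a partner of folliculin, rose by 0.46, at 286 and 337 CPM with shDpep2.968, 230 and 301 CPM with shDpep2.759, and 226, 198 and 201 CPM with shNT (adjusted p = 0.0357; lost in 6 of 15 alternatives, among them leaving out the second library of either hairpin or shNT replicate 2 or 3). Of 15 autophagy genes Wipi1, which binds phosphoinositides on forming autophagosomes, fell by 0.63, at 4.91 and 4.26 CPM with shDpep2.968, 6.90 and 5.15 CPM with shDpep2.759, and 7.73, 8.49 and 8.21 CPM with shNT (adjusted p = 0.0347; lost by DESeq2, in 8 of 15 alternatives in all, among them leaving out any library other than shDpep2.759 replicate 1 or shNT replicate 1). None of the 6 tested protease inhibitors passed the edgeR test, 1 having an unadjusted p under 0.05. By DESeq2 and by limma-voom 1 of the 6 passed: Stfa3, a stefin A gene whose close copies may share reads, at 13.9 and 24.8 CPM with shDpep2.968, 56.3 and 30.0 CPM with shDpep2.759, and 17.0, 11.3 and 10.4 CPM with shNT.

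**Figure D4:**
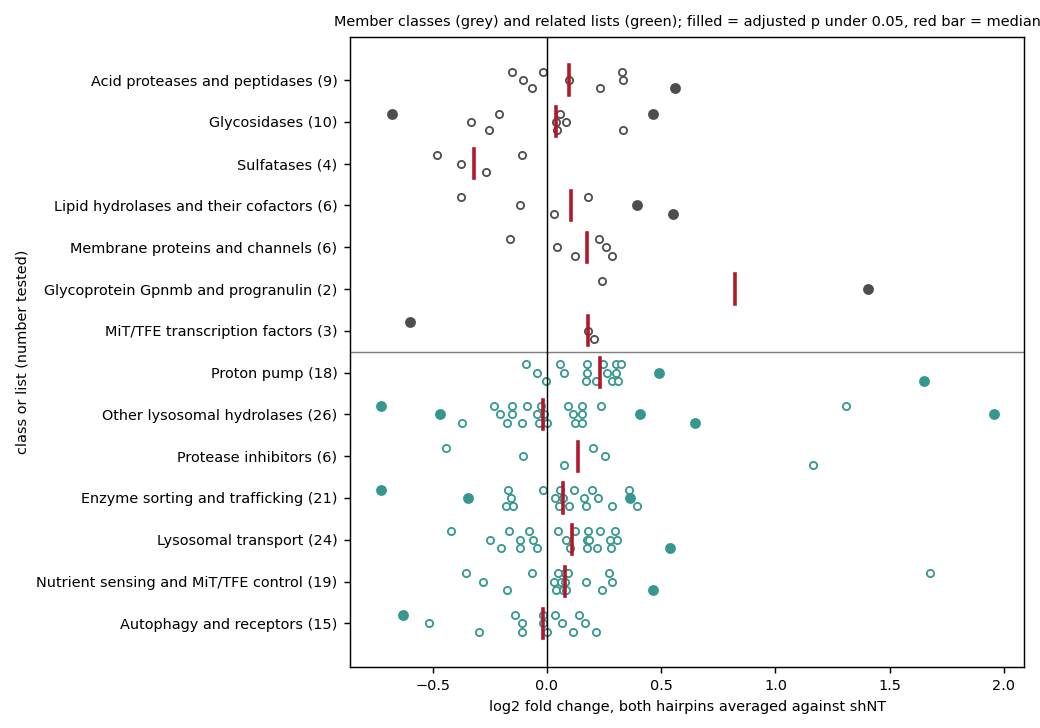
Each point is the averaged log2 fold change of 1 gene, both hairpins against shNT, by class of the 40 members and by related list; filled points had an adjusted p under 0.05 and bars are class medians. The medians lie near 0 in most classes, with the 4 sulfatases all below 0 and 15 of 18 proton pump genes above it.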

How the data were processed

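The deposited table holds whole-number counts per gene symbol for the 7 libraries, from stranded total RNA libraries read as 150-base pairs, per the labels' protocols. The authors' tools were Trim Galore and Salmon and the build hg38, per the submitters' processing notes. That build is human while the symbols are mouse, so no gene coordinates are given from the table. No source says how strand was handled, or if the authors rounded estimated counts from Salmon to whole numbers.

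The main test was edgeR's (version 4.0.16, R 4.3.3) robust quasi-likelihood test, after filterByExpr and TMM scaling. The fit had 1 mean per hairpin group over all 7 libraries and 4 residual degrees of freedom, with Benjamini-Hochberg adjustment over 13329 genes and a threshold of 0.05. The 4 comparisons were both hairpins averaged against shNT, each hairpin against shNT, and one hairpin against the other. The biological coefficient of variation common to all genes came to 13.8%. No pair of libraries of one group matched within sampling noise, with a chi-square of 15.1 to 43.7 for each degree of freedom. The highest value was that of the 2 shDpep2.759 libraries. The 15 alternatives were DESeq2 size factors, library size alone, no low-count filter, DESeq2 1.42.0, limma-voom (limma 3.58.1), a replicate block, the hairpins as 1 group, a GC and length correction (GENCODE M21, covering 97.1% of tested genes) and each library left out in turn.

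The 40 members, the related lists and the markers were chosen with earlier results of these data known. Values in every library are printed for members past the threshold in any comparison and, in a class where none passed, for the 2 with the smallest averaged p. Related genes past the averaged threshold are named, with values for up to 3 per list, except for some that are not reported here. Promoter matches are printed for at most 4 members, changed ones first, then by p. Symbols named outside this rule (Manba, Ppt1, Gusb, Ctsl, Ctsa, Cd68, Ids, Stfa3 and Atp6v0a1, single cell type markers, and members named for their level or function) were chosen after their values were seen. Of 135 listed related symbols 2 had no row and 1 was matched through a synonym.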

Additional observations from a re-analysis of the deposited data

Results flagged for a closer look

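In 4 genes the effects of the 2 hairpins differed by the direct test of shDpep2.968 against shDpep2.759. Ctsc, the dipeptidyl peptidase cathepsin C, was lower with shDpep2.968 (log2 difference -1.02, edgeR adjusted p = 0.0161). Atp6v0a1, the proton pump subunit, was also lower with shDpep2.968 (log2 difference -0.76, adjusted p = 0.0209), its shDpep2.968 libraries lying below the controls and its shDpep2.759 libraries above them. Among the cell type markers, Adgre1 was lower with shDpep2.968 (log2 difference -0.79, adjusted p = 0.0164) and Ocstamp was higher (log2 difference 1.66, adjusted p = 0.00394). Each hairpin had 2 libraries, and the Ctsc and Atp6v0a1 calls were lost without either shDpep2.968 library. The groups were too small for a search for outlying libraries.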

How the results depend on the processing

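The number of members changed in the averaged comparison, 7, was 2 with the replicate block, 3 with the hairpins as 1 group and 15 (11 higher, 4 lower, 6 of them among the 7) with the GC and length correction, and ran from 1 to 10 when 1 library was left out. For shDpep2.968 the count of 5 was 8 with no low-count filter, 3 with the block, 9 with the correction and 1 to 7 leaving 1 library out. For shDpep2.759 the count of 2 was 4 with no filter, 8 by DESeq2, 13 with the correction and 2 to 8 leaving 1 library out. Between the hairpins the count of 1 was 2 with no filter, by DESeq2 and with the correction, and 0 to 5 leaving 1 library out.

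Over all tested genes the averaged count of 1012 was 1590 with no filter, 404 with the block, 540 with the hairpins as 1 group, 2285 with the correction and 321 to 1468 leaving 1 library out. For shDpep2.968 the count of 700 was 1443, 308 and 1856 with no filter, the block and the correction, and 69 to 1309 leaving 1 library out. For shDpep2.759 the count of 630 was 1131, 312 and 1804 in the same order, and 253 to 768. Between the hairpins the count of 112 (34 higher, 78 lower) was 669 with no filter, 354 by DESeq2 (144 higher, 210 lower), 54 by limma-voom, 590 with the correction (270 higher, 320 lower) and 6 to 1070.

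Among the related genes the averaged count of 13 was 4 with the block, 6 with the hairpins as 1 group, 33 with the correction and 4 to 17 leaving 1 library out. For shDpep2.968 the count of 11 was 17 with no filter, 6 by limma-voom, 4 with the block, 29 with the correction and 1 to 17. For shDpep2.759 the count of 8 was 2 with the block, 32 with the correction and 2 to 10. Between the hairpins the count of 1 was 9 with no filter, 5 by DESeq2, 9 with the correction and 0 to 14.

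Of 822 values of single genes under the alternatives, 695 kept their side of the threshold, 104 lost the call, 23 gained it and none that was called changed sign. These values came from 57 results, of which 28 were called as reported. For the others keeping their side meant staying uncalled, and only a called result could lose the call. Across genes, which are not independent replicates, GC content and the averaged log2 fold change had a Spearman correlation of -0.26, and members had a median GC content of 51.9% against 49.7% for all tested genes; the cause was not tested. Scaling alternatives moved the median of all genes by at most 0.029 (log2). Same-numbered deviations from the group mean correlated at 0.07 between the hairpins and at -0.23 to -0.16 between a hairpin and shNT. Different-numbered ones correlated at -0.07 to 0.23. The 2 libraries of a hairpin deviate from their mean by opposite amounts, so these values cannot settle whether libraries were paired. The replicate block left shNT replicate 3 a level of its own, so that this library did not enter the estimate.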
